A study of Mus musculus with 16 samples.

Results

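The step from ED16.0 to ED16.5 (embryonic days, as labelled) was examined in first molar germs labelled upper, by setting the 4 libraries of ED16.5, ED17.0, ED17.5 and ED18.0 (late) against the 4 of ED14.5, ED15.0, ED15.5 and ED16.0 (early). Membership comes from the labels alone and takes in 8 of the 16 libraries of the series, whose other 8 are labelled lower first molar. Poly(A) RNA was sequenced as 100 bp read pairs on an Illumina HiSeq instrument after unstranded TruSeq V2 preparation, and the values are read counts per gene. By the labels, a library holds both first molar germs, left and right, of 1 male wild-type embryo of CD1, an outbred mouse stock, with the upper and lower germs of a stage drawn from 1 individual. No group carried an allele or received an agent, so early and late differ in labelled stage. Each stage has 1 library per tooth label, and the late libraries are therefore no repeats of a single stage. Nothing beyond the individual numbers says how the embryos relate, and a p-value here measures only the spread between these libraries. A covariate in each test marks the alternating sets of stages, ED14.5, ED15.5, ED16.5 and ED17.5 against ED15.0, ED16.0, ED17.0 and ED18.0. All 8 libraries carry the same flow cell in their file names, the early ones lane 1 and the late ones lane 2. The lane and the step cannot be told apart.

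The mouse molar forms where oral epithelium folds into jaw mesenchyme, which derives from neural crest. Signalling centres in the epithelium, the primary and later the secondary enamel knots, stop dividing and release Shh, Fgf, Bmp and Wnt proteins that drive growth around them, and the secondary knots mark where cusps will form. The germ passes from cap to bell stage while the cusps are laid down. Epithelial cells then become ameloblasts that secrete enamel, mesenchymal cells become odontoblasts that secrete dentin, and bone with its osteoclasts surrounds the germ.

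Some features of the libraries depart from a plain stage series and touch every result. Pou3f3, a POU homeobox gene, measured 9.97, 131.5, 8.24 and 119.2 CPM in the early libraries in order of stage and 6.45, 111.6, 10.1 and 109.5 CPM in the late ones, where CPM is the count scaled to the library's total of gene counts. It alternated with the set and not with the step, and did so too in the libraries labelled lower, at 4.89, 86.2, 5.14 and 70.7 CPM early and 5.46, 64.6, 4.45 and 60.1 CPM late. Nkx2-3, another homeobox gene, did the opposite, at 39.4 to 56.2 CPM in the set that holds ED14.5 and at most 0.0905 CPM in the other. Xist, the RNA of the inactive X chromosome, measured 1499 to 1831 CPM in all 8 libraries although the labels give males. In labelled lower it measured 432 and 542 CPM at ED14.5 and ED15.0 and 1610 to 1928 CPM from ED15.5 on. Labelled upper had 1664 and 1739 CPM at ED14.5 and ED15.0, although the labels give both teeth of a stage to 1 individual. The reason for this gap was not tested. Gene counts were 34018916 to 38584429 per early library and 33146758 to 37076826 per late library. Reads on no annotated feature made up 12.6% to 13.3% early and 13.9% to 14.6% late, so this share moved with the step without overlap, and its part in the results was not tested. Among the 28 pairs of these libraries, the most alike pair differed in count at 18027 of 23337 genes.

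Libraries of neighbouring stages also came in pairs. With the mean of each alternating set removed, 71, 20, 4 and 65 of 9785 genes with a mean count of at least 500 differed by over 0.5 on the log2 scale between ED14.5 and ED15.0, ED15.5 and ED16.0, ED16.5 and ED17.0, and ED17.5 and ED18.0. Between ED15.0 and ED15.5, ED16.0 and ED16.5, and ED17.0 and ED17.5 there were 226, 206 and 148 such genes, although these stages are also 0.5 days apart. As a description across genes, which are not independent replicates, Pearson's r of the centred values was 0.689 to 0.794 for neighbours of the first kind and -0.345 to 0.159 for those of the second. Whether such neighbours share an embryo or a litter was not tested. The tests treat the 8 libraries as independent, so the main counts are also given with the alike neighbours summed, a setting chosen after seeing the data.

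**Figure D1:**
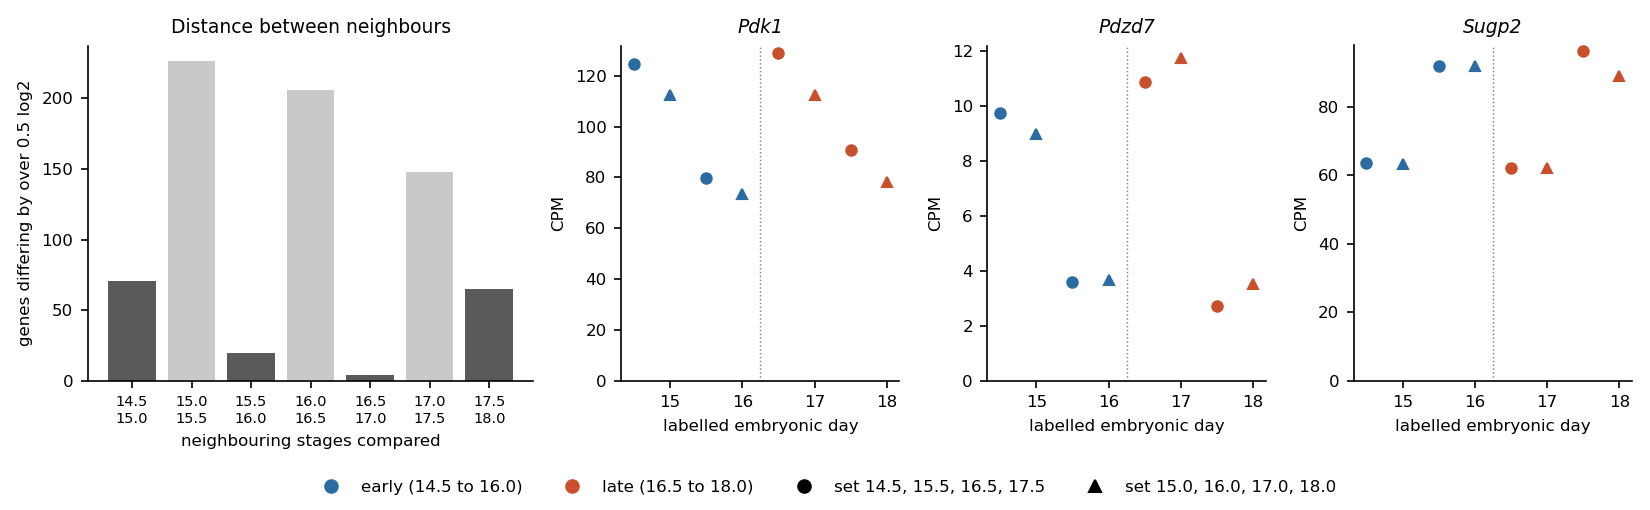
The left panel gives the number of genes, of 9785 with a mean count of at least 500, that differed by over 0.5 log2 between neighbouring labelled upper stages after the mean of each alternating set was removed. Dark bars (4 to 71 genes) are the alike neighbours and pale bars (148 to 226) the neighbours between them, and the other panels show CPM by labelled stage for Pdk1, Pdzd7 and Sugp2, whose levels shift between pairs of stages and return at ED16.5.

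Among the largest differences were transcription factor, secreted protein and skeletal muscle genes that were higher late, and an osteoclast protease gene, embryonic globin genes and the neuronal pentraxin gene Nptx2 that were lower late. Of 15839 genes kept (at least 2 of the 8 libraries at 0.280 CPM, which is 10 counts in a library of median depth), 1747 had an adjusted p of at most 0.05 by the quasi-likelihood test of edgeR after Benjamini-Hochberg adjustment. That is 11% of the genes tested, and such genes are said here to be called. Late was higher for 1018 genes, 6.43% of those tested, and lower for 729, 4.6%. Most differences were small: 561 of the higher and 553 of the lower genes differed by at most 0.5 on the log2 scale, against 198 and 81 that differed by over 2-fold. The median log2 difference was 0.45 among the higher genes, -0.27 among the lower and -0.00412 over all genes tested. For 1221 of the called genes the late and early libraries did not overlap in CPM. Over all genes tested, the 4 late libraries were all above the early ones for 7.89% and all below them for 6.29%.

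These counts depend on how the libraries are treated. With the alike neighbours summed, edgeR called 0 genes, the smallest adjusted p was 0.0594, and 2571 genes had an unadjusted p of at most 0.05, among them 1727 of the 1747. All 1747 kept their sign in the summed fit, and DESeq2's Wald test on the same sums called 771. With 1 library left out, the number called lay between 635 (without ED18.0) and 1465 (without ED16.0). It fell by over 1.5 times without any of ED14.5 (675), ED15.0 (994), ED16.5 (817), ED17.0 (920), ED17.5 (997) or ED18.0, and 496 of the 1747 kept their call whichever library was left out.

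A difference between early and late need not be a break at ED16. A linear slope over the labelled stage, with the same covariate, called 1267 of the 1747 genes. Of the genes higher late, 241 (23.7%) rose at every stage inside both alternating sets, against 2.78% of all genes tested, and 159 of the genes lower late (21.8%) fell at every stage in both sets, against 2.00% of all. These shares use the same libraries as the step and are a description. Without ED16.0 and ED16.5, the stages on either side of the step, 558 genes were called.

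Transcription factor genes and genes of secreted or cell-surface proteins were among the 12 genes with the largest rise. Sall3, a spalt-like zinc finger gene, measured 1.53, 1.40, 2.05 and 1.14 CPM at ED14.5, ED15.0, ED15.5 and ED16.0 and 13.0, 10.9, 25.6 and 20.2 CPM at ED16.5, ED17.0, ED17.5 and ED18.0. The groups lay far apart, and its log2 difference of 3.51 ± 0.29 (SE; adjusted p = 0.00171) was the largest of the 12. Sp9 (chromosome 2, 73271925 to 73284706, GRCm38), a zinc finger gene of the Sp family, measured 1.62, 0.476, 2.54 and 0.597 CPM early and 8.20, 5.13, 17.8 and 14.45 CPM late. Its groups did not overlap either, and the log2 difference was 3.26 ± 0.47 (adjusted p = 0.00665). Foxd2 (chromosome 4, 114906282 to 114908873), a forkhead gene, measured 1.15, 2.32, 1.97 and 3.58 CPM early and 6.50, 10.1, 10.9 and 16.4 CPM late (2.30 ± 0.26, adjusted p = 0.00379). In contrast to Sall3, Foxd2 was also higher at the end of each group than at its start.

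Igfbpl1, a gene of a secreted protein related to insulin-like growth factor binding proteins, measured 0.617, 0.895, 2.38 and 0.705 CPM early and 4.05, 5.64, 13.2 and 15.7 CPM late (3.07 ± 0.57, adjusted p = 0.0152). Mmp13 (chromosome 9, 7272514 to 7283331), a collagenase of bone and cartilage remodelling, measured 2.15, 0.644, 3.27 and 2.03 CPM early and 18.1, 6.37, 14.8 and 12.9 CPM late (2.70 ± 0.33, adjusted p = 0.00431). Mmp13 was highest at ED16.5 and Igfbpl1 at ED18.0. Vwde, a gene of a large protein with von Willebrand and EGF-like domains, rose by 2.53 ± 0.35 on the log2 scale, from 1.32 to 3.97 CPM early to 10.4 to 17.3 CPM late. Gpr115, an adhesion receptor gene, rose by 2.30 ± 0.20, from 1.04 to 1.54 CPM to 4.59 to 7.78 CPM. Pdlim3, whose PDZ and LIM domain protein sits at the Z line of muscle, measured 1.88, 2.49, 4.74 and 4.96 CPM early and 11.3, 12.3, 21.7 and 24.0 CPM late (2.28 ± 0.36, adjusted p = 0.00932). Its values step up at every second stage, with the alike neighbours. Xlr3b rose by 2.31 ± 0.35 but has near-identical copies on the X chromosome, so its counts are uncertain. Of the 23 genes named for the step in both directions, 18 kept an adjusted p of at most 0.05 whichever library was left out.

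**Figure D2:**
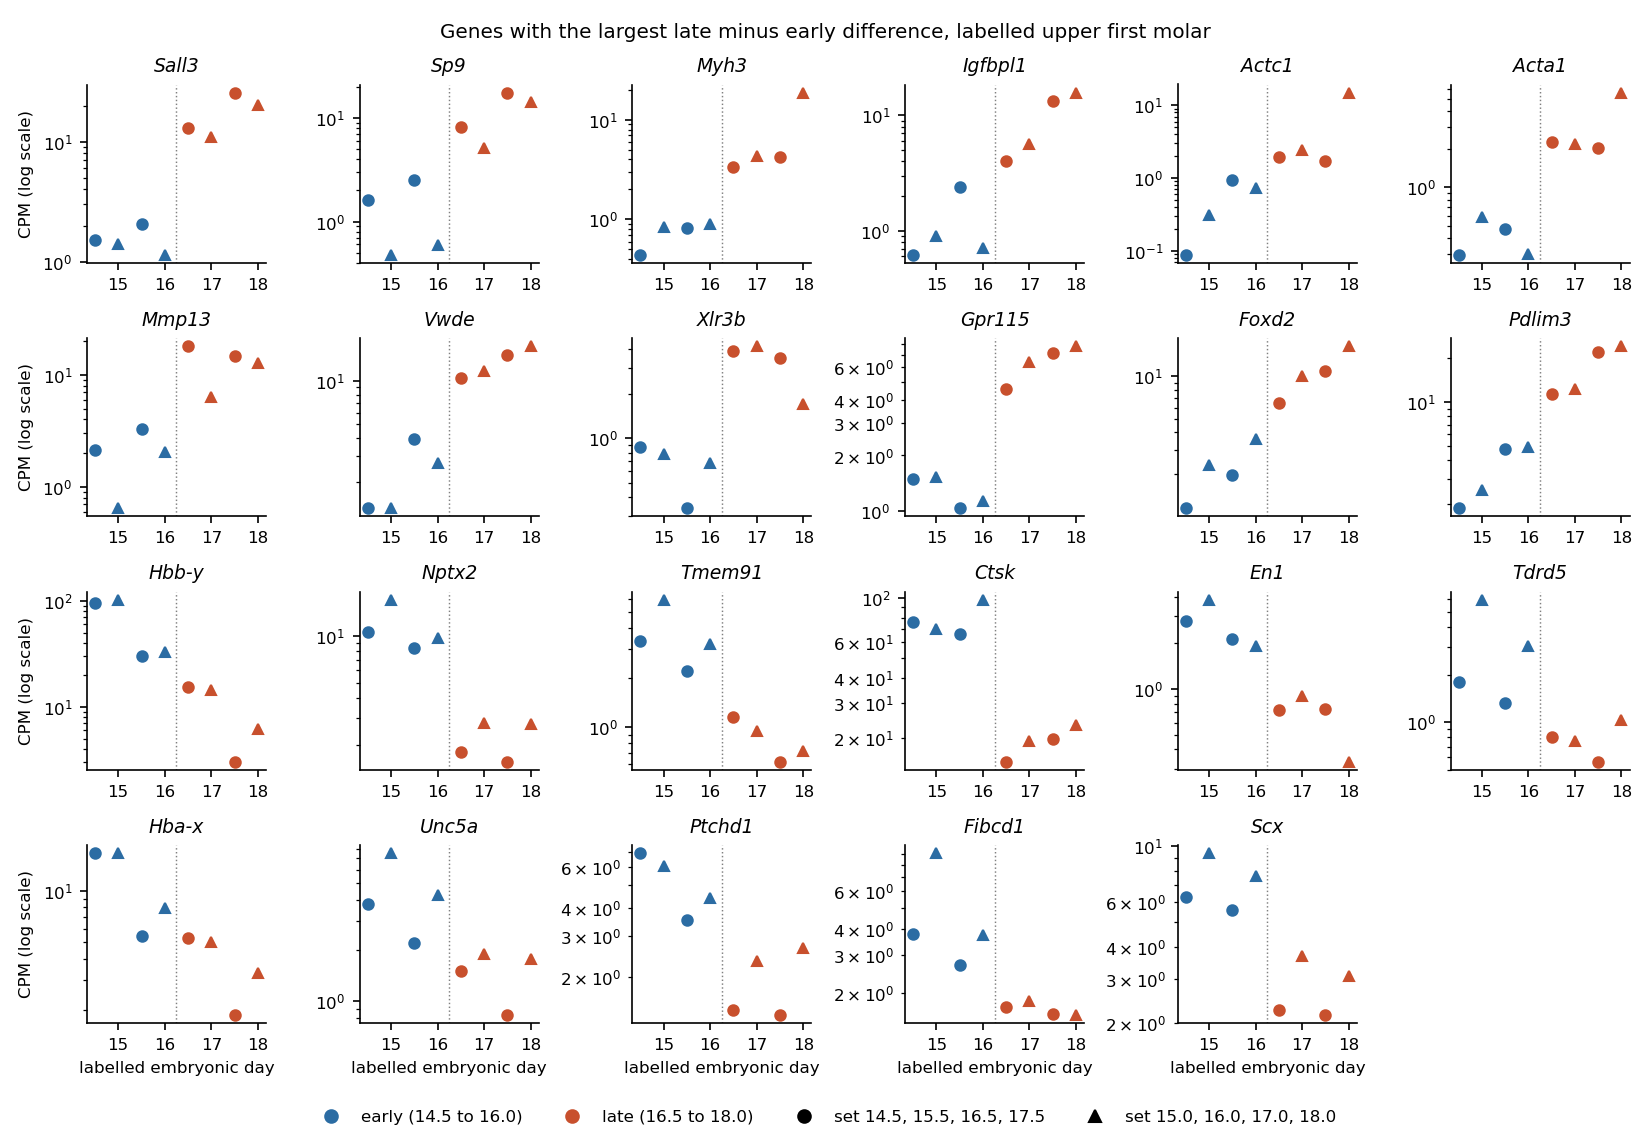
CPM on log axes against labelled embryonic day for the 12 genes with the largest rise and 11 of those with the largest fall among called genes whose groups did not overlap. Points are single libraries, early in blue and late in orange, circles and triangles mark the alternating sets, and the dotted line lies between ED16.0 and ED16.5. Sall3 and Ctsk show a gap at the line, while Foxd2 climbs and Hbb-y declines over the labelled upper stages.

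Skeletal muscle genes rose together at low levels. Of 14 genes in the list 9 were called higher late and 0 lower, against 6.43% and 4.6% of all genes tested. The median log2 difference was 1.72, and all 14 were above 0. With at least 4 libraries at 1 CPM required, 7 members were tested, 6 were called higher and the median was 1.40. Myh3, Acta1 and Actc1 passed this filter through the late libraries alone, which favours a positive sign, so it is no independent check of the rise. Myh3 (chromosome 11, 67078300 to 67102291), the embryonic myosin heavy chain, measured 0.441, 0.839, 0.8294 and 0.895 CPM early and 3.37, 4.38, 4.27 and 18.8 CPM late (3.20 ± 0.49, adjusted p = 0.00860). Acta1, skeletal alpha actin, measured 0.294, 0.588, 0.467 and 0.298 CPM early and 2.27, 2.22, 2.03 and 5.58 CPM late (2.82 ± 0.37, adjusted p = 0.00490). Both were highest at ED18.0, and for both the other 3 late libraries also lay above all early ones. The myosin light chain gene Myl1 rose by 3.44 ± 0.61 and the muscle creatine kinase gene Ckm by 3.93 ± 0.52, from 11 and 4 counts over the 4 early libraries to 124 and 66 over the late ones, so that both sizes are imprecise. Both genes reached the limit for testing through late libraries, which favours a positive sign. Actc1, cardiac alpha actin, which fetal skeletal muscle also makes, measured 0.0882, 0.308, 0.933 and 0.732 CPM early and 1.97, 2.44, 1.74 and 14.99 CPM late (3.02 ± 0.79, adjusted p = 0.0424).

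Tnni1, Tnnt3, Mylpf and Ttn, genes of the troponin complex, myosin and titin, were the other called members, with log2 differences of 2.05, 1.23, 1.24 and 1.40. The summed level of the 14 genes was 7.05 to 10.6 CPM early and 18.4 to 76.3 CPM late, with 76.3 CPM at the top. Myog and Myod1, the transcription factor genes that define the lineage, measured 3.65 and 1.75 CPM at ED18.0 and at most 0.539 and 0.651 CPM in the other 7 libraries, and neither was called. With 1 library left out the number of called members ran from 4 to 10. It was 4 without ED14.5, ED15.0 or ED16.0 and 5 without ED16.5, ED17.5 or ED18.0. Acta1, Myh3, Myl1 and Ckm kept their call whichever library was left out, and Actc1 lost it without any of 6, with an adjusted p of up to 0.107. In dissected germs, more muscle cells and more RNA per cell cannot be told apart, and the same holds for fewer or more cells of any type named here.

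**Figure D3:**
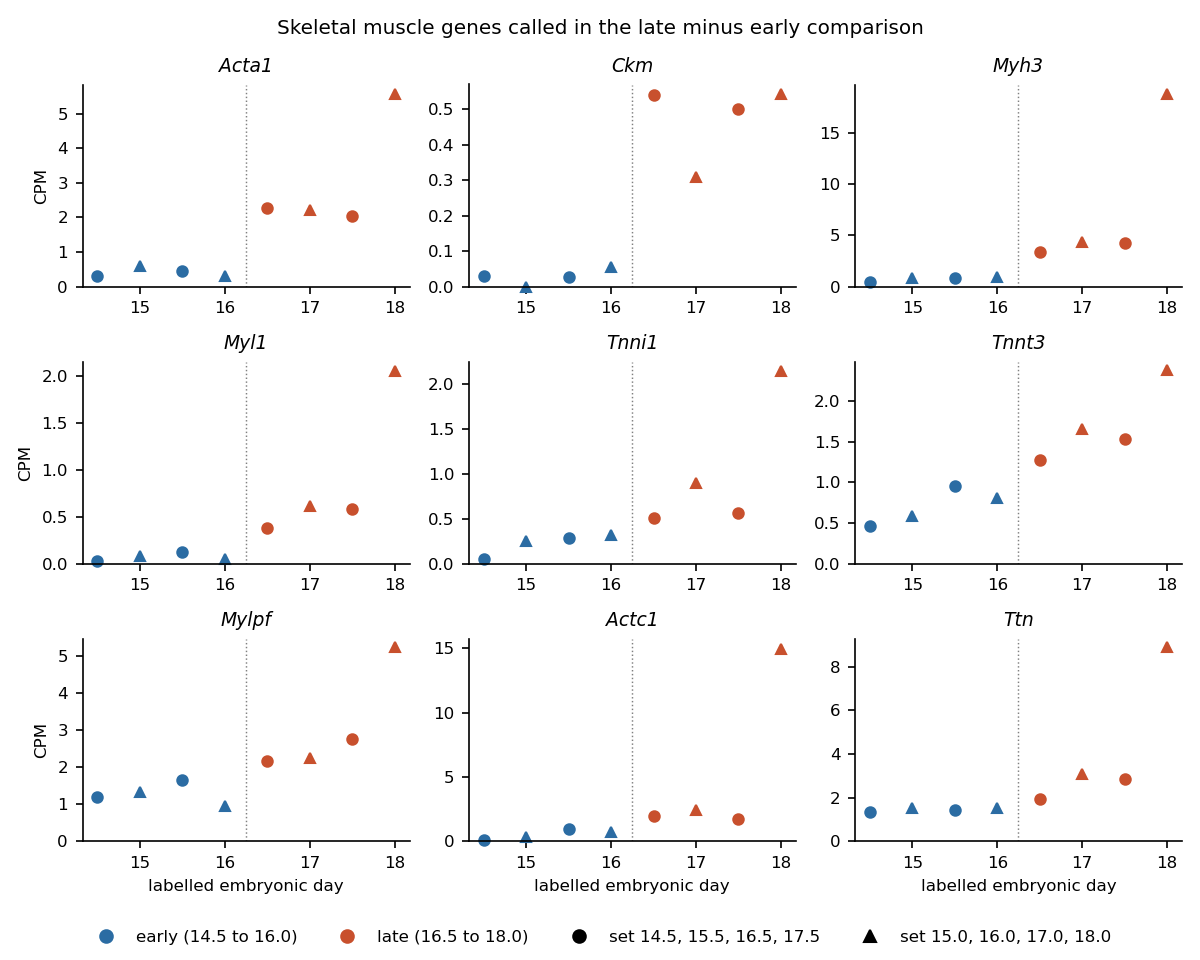
CPM on linear axes from 0 against labelled embryonic day for the 9 skeletal muscle genes called higher late. Points are single libraries, early in blue and late in orange, with circles and triangles for the alternating sets. ED18.0 is the highest library in all 9 panels, and the other 3 late libraries also lie above the early ones.

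The CArG box, which serum response factor binds in muscle promoters, was searched on both strands of the promoters of the muscle genes, of which 13 promoters of 12 genes were matched. It was found in those of Acta1 and Actc1 and in 535 of 32851 mouse promoters of the same length in RefSeq (1.63%, assembly GRCm38.p6). These sequences run from 250 bases before to 50 after the transcription start, are shown because both actin genes are among the largest rises, and carry the match in capitals. They lie at chr8:123894726-123895025 (Acta1) and chr2:114052826-114053125 (Actc1), both on the minus strand. A match is a match of letters and not a measured site, and its absence from the other windows says nothing about the factor.
Acta1: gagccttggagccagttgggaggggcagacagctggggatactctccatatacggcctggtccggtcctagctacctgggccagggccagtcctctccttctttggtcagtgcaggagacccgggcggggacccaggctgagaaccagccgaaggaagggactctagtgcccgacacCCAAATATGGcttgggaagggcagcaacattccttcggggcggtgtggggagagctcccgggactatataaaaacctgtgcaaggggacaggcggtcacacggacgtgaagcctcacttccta
Actc1: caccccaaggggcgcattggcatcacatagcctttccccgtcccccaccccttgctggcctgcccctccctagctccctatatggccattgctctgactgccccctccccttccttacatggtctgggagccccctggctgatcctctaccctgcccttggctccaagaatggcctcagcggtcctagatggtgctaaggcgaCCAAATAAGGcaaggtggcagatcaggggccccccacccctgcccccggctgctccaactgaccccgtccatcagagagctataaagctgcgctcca

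Of the 11 genes named for a fall, Ctsk (chromosome 3, 95499256 to 95509362) had the smallest adjusted p. It encodes cathepsin K, the collagen-degrading protease of osteoclasts. Ctsk measured 75.6, 69.9, 65.8 and 98.3 CPM early and 15.1, 19.2, 19.7 and 23.0 CPM late (-2.02 ± 0.13, adjusted p = 0.000759, at most 0.00530 with any library left out). It showed no decline within either group, and its highest value was at ED16.0, the last stage before the step. Acp5, the tartrate-resistant phosphatase, and Mmp9, a gelatinase, were called higher late, by 0.43 ± 0.11 and 0.47 ± 0.12. Of the 12 osteoclast genes 2 rose and 1 fell, against 6.43% and 4.6% of all genes tested. At most 1 was called higher once a library was left out, and 2 fell with DESeq2, with the linear slope or without ED15.5. Car2, carbonic anhydrase 2, and Oscar, an osteoclast receptor gene, had log2 differences of -0.38 ± 0.13 and -0.32 ± 0.35 and were not called, and the other 9 members besides Ctsk were above 0. The summed level of the list was 265 to 392 CPM early and 265 to 378 CPM late.

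The embryonic globin genes Hbb-y and Hba-x fell over the labelled upper stages. Hbb-y (chromosome 7, 103851749 to 103853216) measured 95.0, 102, 29.9 and 32.9 CPM early and 15.45, 14.6, 3.03 and 6.24 CPM late (-2.72 ± 0.57, adjusted p = 0.0218). Its values fell in pairs of neighbouring stages. Hba-x measured 16.6, 16.7, 5.44 and 7.89 CPM early and 5.26, 5.02, 1.86 and 3.29 CPM late (-1.59 ± 0.43, adjusted p = 0.0459). In labelled lower, Hbb-y measured 0.494 to 0.779 CPM early and 0.106 to 0.910 CPM late, below labelled upper at every stage. Hba-x measured 0.504 to 0.898 CPM early and 0.200 to 0.650 CPM late there. By the labels, upper and lower germs of a stage come from 1 individual, and the reason for this gap was not tested. Globin genes are similar in sequence, so their counts are uncertain. The adjusted p rose to 0.0593 to 0.0674 without ED14.5, ED15.0 or ED18.0 for Hbb-y and to at most 0.138 without any of 6 libraries for Hba-x. The adult globin gene Hbb-b1 measured 0.476 to 1.02 CPM over the 8 libraries, and Alas2, the first enzyme of heme synthesis in red cells, 15.8 to 22.5 CPM early and 19.5 to 26.2 CPM late. Neither was called, and of 10 erythroid genes tested 0 rose and 2 fell, against 6.43% and 4.6% of all genes tested. Hbb-bh1, also an embryonic globin gene, was tested and not called.

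Nptx2, a neuronal pentraxin, measured 10.6, 17.01, 8.29 and 9.60 CPM early and 1.81, 2.75, 1.56 and 2.75 CPM late (-2.38 ± 0.19, adjusted p = 0.00171). In both groups its mean was higher in the set that holds ED15.0. The netrin receptor gene Unc5a fell by 1.52 ± 0.27 and Ptchd1, a gene of a patched-domain membrane protein, by 1.47 ± 0.26. Tmem91, Tdrd5 and Fibcd1 fell by 2.04 ± 0.31, 1.81 ± 0.33 and 1.45 ± 0.31, and the adjusted p rose to 0.0528 without ED18.0 for Tdrd5 and to 0.0637 to 0.0751 without ED14.5, ED17.0 or ED18.0 for Fibcd1. A list of 10 general neuron genes did not go the way of Nptx2: 8 were above 0 and the median was 0.40. In this list 2 were called higher and 1 lower, against 6.43% and 4.6% of all genes tested. There Stmn2 and Snap25, of growing axons and of synaptic vesicle release, rose by 0.97 and 0.69, and the RNA-binding protein gene Elavl4 fell by 0.66, and none of these 3 calls held whichever library was left out.

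En1 and Scx, both transcription factor genes, were also among the largest falls. En1, the engrailed homeobox gene, measured 2.76, 3.83, 2.13 and 1.90 CPM early and 0.728, 0.898, 0.737 and 0.332 CPM late (-1.97 ± 0.33, adjusted p = 0.0107). Scx (chromosome 15, 76457452 to 76459458), a gene of tendon and ligament progenitors, measured 6.29, 9.37, 5.57 and 7.65 CPM early and 2.27, 3.70, 2.15 and 3.08 CPM late (-1.38 ± 0.12, adjusted p = 0.00171). For both genes the lowest early library stood above the highest late one, and the call held whichever library was left out.

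Markers of both tooth tissues were present throughout. The dental epithelium list summed to 4670.1 to 7244 CPM early and 5289.9 to 7328 CPM late and the dental mesenchyme list to 4724 to 5726 CPM early and 4306 to 5729.7 CPM late, and neither sum separated the groups. Of 20 epithelial genes, with a median of 0.12, 2 rose and 2 fell, against 6.43% and 4.6% of all genes tested. Foxi3, a forkhead gene of tooth epithelium, rose by 0.54 ± 0.11 and the E-cadherin gene Cdh1 by 0.30 ± 0.06. Sox2, a progenitor cell gene, measured 43.6, 39.0, 42.9 and 34.0 CPM early and 40.7, 22.5, 26.7 and 15.1 CPM late (-0.65 ± 0.18, adjusted p = 0.0480), and the claudin gene Cldn4 fell by 0.39 ± 0.09. The groups of all 4 genes overlapped, and none of the 4 calls held whichever library was left out.

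Of 21 mesenchymal genes, with a median of 0.02, 3 rose and 5 fell, against 6.43% and 4.6% of all genes tested. Msx1, a homeobox gene without which the germ does not advance beyond the bud, measured 172, 232, 168 and 252 CPM early and 139, 171, 113 and 151 CPM late (-0.52 ± 0.08, adjusted p = 0.00716). Prrx1 and Prrx2, paired-related homeobox genes, fell by 0.58 ± 0.10 and 0.37 ± 0.05 with no overlap between the groups, while the highest late and lowest early values of Msx1 crossed. The Wnt antagonist gene Sfrp2 fell by 0.52 ± 0.12 and Tnc, a matrix glycoprotein gene, by 0.41 ± 0.09. Fgf10, Pdgfra and Twist1, a growth factor, a growth factor receptor and a basic helix-loop-helix factor gene, rose by 0.46, 0.29 and 0.21. Msx1, Prrx1, Prrx2 and Pdgfra kept their call whichever library was left out, and the other 4 did not.

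**Figure D4:**
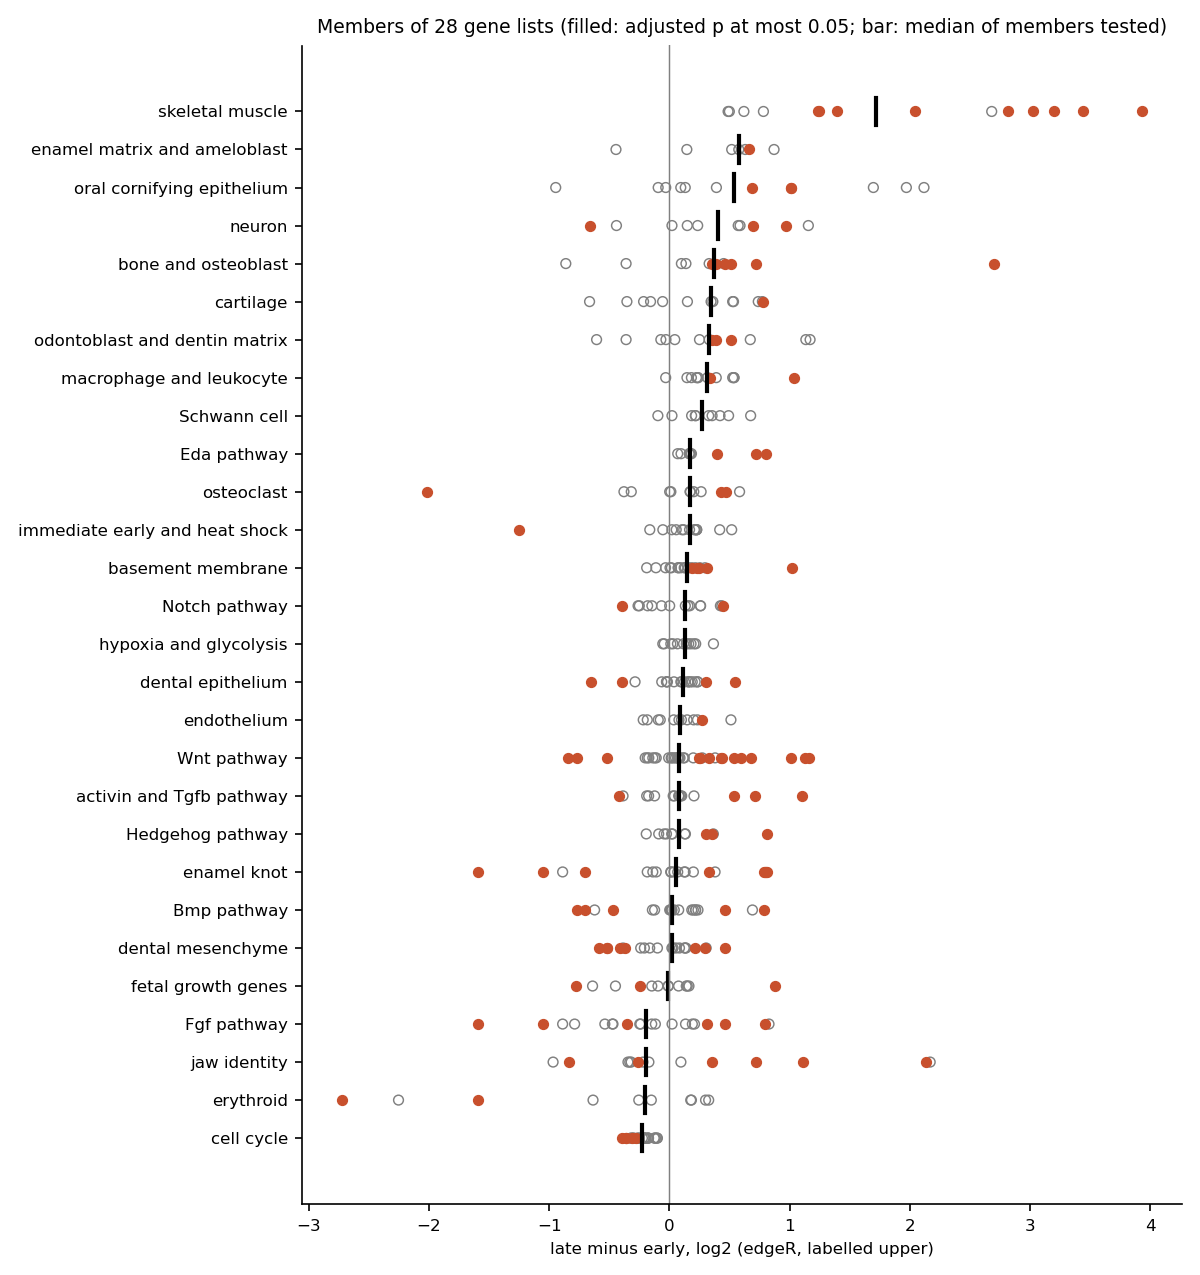
Log2 difference of late minus early for each tested member of 28 gene lists, with 1 point per gene and filled points for an adjusted p of at most 0.05. Bars are medians of the tested members. The skeletal muscle list has the highest median, 1.72, and the cell cycle list the lowest, -0.22.

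Enamel knot genes changed in both directions. Of 20 genes, with a median of 0.05, 5 were called higher and 3 lower, against 6.43% and 4.6% of all genes tested. Shh, the knot's hedgehog ligand, measured 63.5, 61.4, 87.4 and 42.8 CPM early and 87.7, 84.0, 147 and 126 CPM late (0.81 ± 0.21, adjusted p = 0.0402). Fgf9 measured 5.44, 8.73, 6.14 and 6.70 CPM early and 8.98, 10.3, 13.9 and 13.6 CPM late (0.80 ± 0.17, adjusted p = 0.0233). Fgf9 separated the groups and Shh did not. Edar, the ectodysplasin receptor gene, rose by 0.81 ± 0.13, the homeobox gene Msx2 by 0.79 ± 0.16 and Lef1, a nuclear effector of Wnt signals, by 0.33 ± 0.05. Other ligand genes of the knot fell. Fgf20 measured 6.61, 4.76, 6.76 and 2.98 CPM early and 3.32, 2.58, 2.06 and 1.99 CPM late (-1.05 ± 0.22, adjusted p = 0.0212), Fgf15 fell by 1.59 ± 0.29 and Bmp2 by 0.70 ± 0.18. Fgf4 measured 3.28 to 7.73 CPM early and 1.72 to 5.60 CPM late and was not called (adjusted p = 0.0671). Bmp4 measured 95.8 to 109 CPM early and 100.0 to 107 CPM late. Fgf15, Edar and Lef1 kept their call whichever library was left out, while from 2 to 5 genes were called higher and from 1 to 4 lower.

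The Wnt list, with a median of 0.08, had 11 genes higher and 3 lower of 35, against 6.43% and 4.6% of all genes tested. Among the ligands, Wnt5a measured 172, 189, 195 and 208 CPM early and 255, 266, 258 and 261 CPM late (0.44 ± 0.05, adjusted p = 0.00418). It climbed through the early stages and was level in the late ones. Among the R-spondins, which amplify Wnt signals, Rspo2 rose by 1.16 ± 0.21 while Rspo3 and Rspo4 fell by 0.84 ± 0.14 and 0.77 ± 0.16. Rspo3 measured 20.5, 20.3, 19.02 and 19.7 CPM early and 12.0, 14.4, 8.13 and 10.2 CPM late, and Rspo2 24.9, 20.7, 25.3 and 19.6 CPM early and 39.7, 33.1, 70.2 and 60.5 CPM late, so that the 2 genes moved apart. Lgr6, an R-spondin receptor gene, rose by 0.43 ± 0.08. Of the nuclear effectors Lef1 and Tcf7 rose, by 0.33 and 0.68, and of the feedback targets Axin2, Notum and Apcdd1, by 0.25, 0.59 and 0.54. Of the secreted antagonists, Sfrp4 measured 12.2, 9.85, 9.90 and 10.7 CPM early and 22.04, 24.3, 17.3 and 30.6 CPM late (1.12 ± 0.15, adjusted p = 0.00543), Wif1 rose by 1.01 ± 0.18 and Dkk3 by 0.26 ± 0.06, and Sfrp2 fell. Wnt5a, Lef1, Axin2, Sfrp4, Wif1, Rspo2, Rspo3 and Apcdd1 kept their call whichever library was left out, and from 7 to 11 genes were called higher.

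In the Bmp list of 21 genes, the ligand Bmp3 measured 22.1, 33.3, 21.2 and 30.1 CPM early and 39.6, 49.4, 43.7 and 49.9 CPM late (0.79 ± 0.07, adjusted p = 0.00176), and the decoy receptor gene Bambi rose by 0.46 ± 0.10. The ligands Bmp2 and Bmp6 fell by 0.70 and 0.46 and the antagonist Chrdl1 by 0.76. Of these 5 calls those of Bmp3 and Chrdl1 held whichever library was left out. Counts in this paragraph stand beside 6.43% of all genes tested called higher and 4.6% lower. Of 20 Fgf genes 3 rose, the receptor Fgfr2 (0.31 ± 0.05) with Fgf9 and Fgf10, and 3 fell, the target Etv5 (by 0.35 ± 0.08) with Fgf15 and Fgf20. In the Hedgehog list of 12, 3 genes rose, among them Shh and Ptch1 (0.36 ± 0.07), which is both receptor and target, but 0 of these calls were left in edgeR without ED14.5 or without ED18.0. The Eda list of 9 had Edar, its adaptor Edaradd (0.72 ± 0.10) and the related receptor Tnfrsf19 higher, and these 3 held whichever library was left out. Tnfrsf19 measured 196, 201, 193 and 199 CPM early and 234, 285, 252 and 273 CPM late (0.40 ± 0.05, adjusted p = 0.00379).

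Of 15 Notch genes the receptor Notch2 rose by 0.45 ± 0.07 and the target Hes1 fell by 0.40 ± 0.07. In the activin and Tgfb list of 15, the activin subunit Inhbb rose by 1.10 ± 0.20, Tgfbi, a matrix protein gene induced by Tgfb, by 0.72 ± 0.07 and the ligand Tgfb2 by 0.53 ± 0.12, while Tgfb1 fell by 0.41 ± 0.09. Notch2, Hes1, Inhbb and Tgfbi kept their call whichever library was left out. Among all genes tested, 6.43% were called higher and 4.6% lower. The members of these lists were chosen with earlier results known, and no test here compares a list with other genes.

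Genes of mineralized matrix ranged from abundant to undetected. Ambn, the enamel protein ameloblastin, measured 17.9, 12.3, 24.4 and 17.4 CPM early and 27.9, 27.7, 25.1 and 21.6 CPM late and was not called (adjusted p = 0.0631). Amelx, Amtn, Klk4, Mmp20, Slc24a4 and Acpt were below the limit for testing, and Amelx, amelogenin, was at most 0.0809 CPM. Dlx3, a homeobox gene of enamel- and dentin-forming cells, measured 74.8, 92.5, 105 and 111 CPM early and 128, 153, 168 and 159.9 CPM late (0.66 ± 0.12, adjusted p = 0.0141). Of the 7 enamel genes tested, Dlx3 was the 1 called higher and 0 were called lower, against 6.43% and 4.6% of all genes tested. Dspp, the main dentin protein gene, was at most 0.0302 CPM and not tested.

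Of 12 bone and osteoblast genes 6 rose and 0 fell, against 6.43% and 4.6% of all genes tested. Beside Mmp13 and Bambi they included Dlx5 (0.72 ± 0.18), the collagen gene Col1a1 (0.51 ± 0.11) and alkaline phosphatase Alpl (0.39 ± 0.08). Of these 5 genes Mmp13 kept its call whichever library was left out, and Ibsp, bone sialoprotein, was not called, at 47.8 to 164 CPM early and 64.4 to 163 CPM late. Of the dentin list Col1a1, Alpl and Sparc rose, and all 3 also serve bone. None of these 3 calls held whichever library was left out, and 0 of the list were left without ED17.5, without ED18.0 or without the covariate. In the basement membrane list 5 of 20 rose and 0 fell. The laminin chain gene Lama1 measured 24.8, 26.0, 33.0 and 33.3 CPM early and 54.7, 58.2, 64.4 and 61.4 CPM late (1.02 ± 0.11, adjusted p = 0.00291). Col4a5, Fras1, Lamb1 and Lamc1 rose by 0.31, 0.25, 0.23 and 0.19. All 5 separated the groups, as did 7.89% of all genes tested in this direction, and Lama1 and Fras1 kept their call whichever library was left out. With the spread shared over 16 libraries, or without ED16.0 and ED16.5, 1 gene of the list was called.

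Markers of other cell types that a dissected germ can hold are set here beside the 6.43% of all genes tested that were called higher. Cartilage had 1 of 13 higher, the collagen gene Col9a3 (0.78 ± 0.18), endothelium 1 of 12, the receptor gene Eng (0.27 ± 0.05), and macrophages 2 of 13, the lysozyme gene Lyz2 (1.04 ± 0.17) and the receptor gene Csf1r (0.34 ± 0.07). The calls of Eng and Lyz2 held whichever library was left out, that of Csf1r did not, and that of Col9a3 was lost without any of ED15.0, ED16.5, ED17.0, ED17.5 or ED18.0 and without the covariate. Of 10 Schwann cell genes 0 were called by edgeR and 0 by DESeq2, with 2 at an unadjusted p of at most 0.05. Genes of cornifying oral epithelium had 3 of 12 higher, with Krt1 at 33.0, 57.6, 58.1 and 83.7 CPM early and 91.8, 108, 102 and 165 CPM late (1.01 ± 0.20, adjusted p = 0.0177), Krt10 higher by 0.69 and Sbsn by 1.01. Of these 3 calls that of Sbsn held whichever library was left out, and 1 was left without ED18.0. Keratin genes are similar in sequence, so their counts are uncertain. Krt13 and Krt4, keratins of the oral surface, were not called (adjusted p = 0.0511 and 0.0542), and Krt4 measured 43.8 CPM at ED18.0 against at most 6.06 CPM elsewhere. The summed level of this list was 229 to 382 CPM early and 396 to 744 CPM late, without overlap. The part of surface epithelium or of muscle in other results was not tested.

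Jaw identity genes moved in both directions. Of 14 tested 4 rose and 2 fell, against 6.43% and 4.6% of all genes tested. Dlx5 and Dlx4, distal-less genes of the mandibular arch, rose, and Dlx4 measured 4.88, 4.67, 7.13 and 6.401 CPM early and 10.8, 10.6, 15.999 and 12.7 CPM late (1.11 ± 0.18, adjusted p = 0.00913). Meis2, a homeobox cofactor gene, measured 49.5, 33.8, 33.3 and 27.9 CPM early and 27.5, 16.7, 17.9 and 18.9 CPM late (-0.83 ± 0.16, adjusted p = 0.0163), and the related Meis1 fell by 0.26 ± 0.07. Gbx2, another homeobox gene, measured 0.617, 0.700, 0.389 and 0.244 CPM early and 1.13, 0.785, 2.80 and 3.92 CPM late (2.13 ± 0.56, adjusted p = 0.0431), and its adjusted p was above 0.05 without any of 7 libraries, up to 0.115. Hand1 had 0 counts in all 8 libraries. Dlx4 and Meis2 kept their call whichever library was left out.

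Of 25 cell cycle genes 5 fell, by small amounts, and 20 did not pass the test, while 4.6% of all genes tested were called lower. None had a log2 difference above 0, and the median was -0.22. Those that fell were Ccnb2 (by 0.39), Birc5 (0.36), Cdc20 (0.36), Ube2c (0.31) and Cdk1 (0.28). Ccnb2, a mitotic cyclin gene, measured 82.0, 80.6, 70.2 and 61.5 CPM early and 60.6, 56.3, 62.4 and 46.1 CPM late, with overlap. From 0 to 6 were called with 1 library left out, and 0 without ED14.5, ED16.5, ED17.0 or ED18.0 or without the covariate. DESeq2 called 12 lower, the linear slope 15 and the fit with the spread shared over 16 libraries 12. With the alike neighbours summed edgeR called 0 and DESeq2 3. Among 13 fetal growth genes, Hmga2, a chromatin protein gene, measured 443, 489, 340.5 and 339 CPM early and 236, 276, 200.2 and 235 CPM late (-0.77 ± 0.13, adjusted p = 0.0107). The RNA-binding protein gene Igf2bp3 fell by 0.24 ± 0.04 and the growth factor gene Igf1 rose by 0.88 ± 0.15, and these 3 calls held whichever library was left out. Of 15 immediate early and heat shock genes, which react to handling, 0 rose and Egr3 fell by 1.25 ± 0.25. Of 12 hypoxia and glycolysis genes 0 were called by edgeR, 3 had an unadjusted p of at most 0.05, and DESeq2 called 1.

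To ask whether levels changed between ED16.0 and ED16.5 beyond a straight line over the 8 stages, the linear stage was added to the fit. This jump was called for 39 of 15839 genes, 0.246%, with 14 higher late (0.0884%) and 25 lower (0.158%). Of the 10 genes named for it, Ctsk alone was also called for the step, with a jump of -2.47 ± 0.23 (adjusted p = 0.00984). The others followed the pairs of alike neighbours. Pdk1, a kinase that holds back pyruvate oxidation, measured 125, 112, 80.0 and 73.6 CPM early and 129, 113, 90.9 and 78.2 CPM late, a jump of 1.21 ± 0.09 (adjusted p = 0.00312) beside a step of 0.07 ± 0.19. Sugp2, a splicing factor gene, measured 63.7, 63.3, 91.9 and 91.9 CPM early and 62.1, 62.2, 96.2 and 89.1 CPM late, a jump of -1.13 ± 0.08 beside a step of -0.01 ± 0.19. Both genes changed inside each group and went back between ED16.0 and ED16.5. Pdzd7, Exosc9, Gpat2 and Fam129c had positive jumps of 3.26, 1.06, 2.74 and 1.73, and Hebp2, Tmem59l and Btrc negative ones of -1.66 ± 0.16, -2.90 ± 0.28 and -0.81 ± 0.09. Without ED16.0 or without ED16.5 edgeR called 0 jumps, with 1507 and 1190 genes at an unadjusted p of at most 0.05, and it called 3 to 7 without ED14.5, ED15.5, ED17.0 or ED18.0. DESeq2 on all 8 libraries called 200.

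Whether the step was the same in the libraries labelled lower was tested in a fit over all 16. Since Pou3f3 and Nkx2-3 alternated under both tooth labels, each difference compares libraries as labelled, and whether the labels give the tooth at every stage was not tested. The lower libraries ran on another flow cell, lane 2 early and lane 3 late. The steps differed for 598 of 16287 genes, 3.67%, with the upper step the higher for 356 (2.19%) and the lower for 242 (1.49%). With the individual as a replicate block it was 477 genes (2.93%). With the alike neighbours summed edgeR called 0, with 1520 genes at an unadjusted p of at most 0.05, and DESeq2 on the single libraries called 1082. Of the 598, 286 had a positive step in labelled upper and a negative one in labelled lower, 211 the opposite, 75 were positive in both and 26 negative in both. This test shares the 8 upper libraries with the step, for which 350 of the 598 were also called.

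For some genes with a large upper step, the early libraries labelled lower measured above the early ones labelled upper. Sall3 measured 47.0, 51.0, 72.2 and 72.7 CPM in the lower early libraries and 77.4, 92.0, 116 and 126 CPM in the lower late ones, and its step was larger in labelled upper by 2.73 ± 0.40 on the log2 scale (adjusted p = 0.00273). Foxd2 measured 18.4, 24.2, 18.4 and 32.0 CPM early and 18.3, 28.6, 16.17 and 29.4 CPM late in labelled lower, above labelled upper at every stage (2.31 ± 0.28, adjusted p = 0.000903). Lower levels of Sp9 averaged 30.8 CPM early and 42.0 CPM late (2.73 ± 0.49). Pdlim3, which rose in labelled upper, averaged 15.9 CPM early and 9.88 CPM late in labelled lower (2.96 ± 0.41).

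Ctsk differed in the other direction. In labelled lower it measured 51.1, 22.3, 259 and 134 CPM early and 196, 119, 226 and 152 CPM late, with ED14.5 and ED15.0 the low ones, and the steps differed by -2.64 ± 0.66 (adjusted p = 0.0436). Scx measured 1.64 to 2.45 CPM early and 1.40 to 2.43 CPM late in labelled lower, near the late upper level (-1.37 ± 0.17, adjusted p = 0.000993). Rspo4 averaged 28.6 CPM early and 89.3 CPM late in labelled lower while it fell in labelled upper (-2.43 ± 0.47, adjusted p = 0.0150), and Gbx2 4.70 and 1.73 CPM while it rose (3.68 ± 0.67, adjusted p = 0.0102).

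The 10 genes with the smallest p for this test, 5 in each direction, kept their call with any of the 16 libraries left out. Tead1, a DNA-binding factor of the Hippo pathway, measured 287, 323, 301 and 302 CPM early and 357, 366, 349 and 368 CPM late in labelled upper, against 336, 439, 334 and 434 and 280.3, 349, 285 and 367 CPM in labelled lower (0.50 ± 0.05, adjusted p = 0.000392). Ror1, a Wnt5a receptor gene, measured 20.4, 24.1, 23.8 and 24.4 CPM early and 34.7, 38.0, 37.9 and 37.9 CPM late in labelled upper, against 29.6, 28.5, 24.7 and 28.5 and 21.3, 25.8, 24.3 and 25.7 CPM in labelled lower (0.87 ± 0.10). Both rose in labelled upper and had a negative step in labelled lower. Fam189a1, Psd3 and Dock10 went the same way, with differences of 0.97, 0.72 and 1.06. For the tripartite motif genes Trim68 and Trim12c the larger step was in labelled lower. Trim12c measured 12.2 to 13.5 CPM early and 13.6 to 16.502 CPM late in labelled upper, and 4.08 to 5.42 CPM early and 14.4 to 25.4 CPM late in labelled lower (-1.81 ± 0.21, adjusted p = 0.000669), and its near-identical copies make its counts uncertain. Trim68 (-1.34 ± 0.13), the nucleosome-binding gene Hmgn3 (-0.57 ± 0.06), Tsc22d1 (-0.49 ± 0.05) and Scx were the others of this direction.

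**Figure D5:**
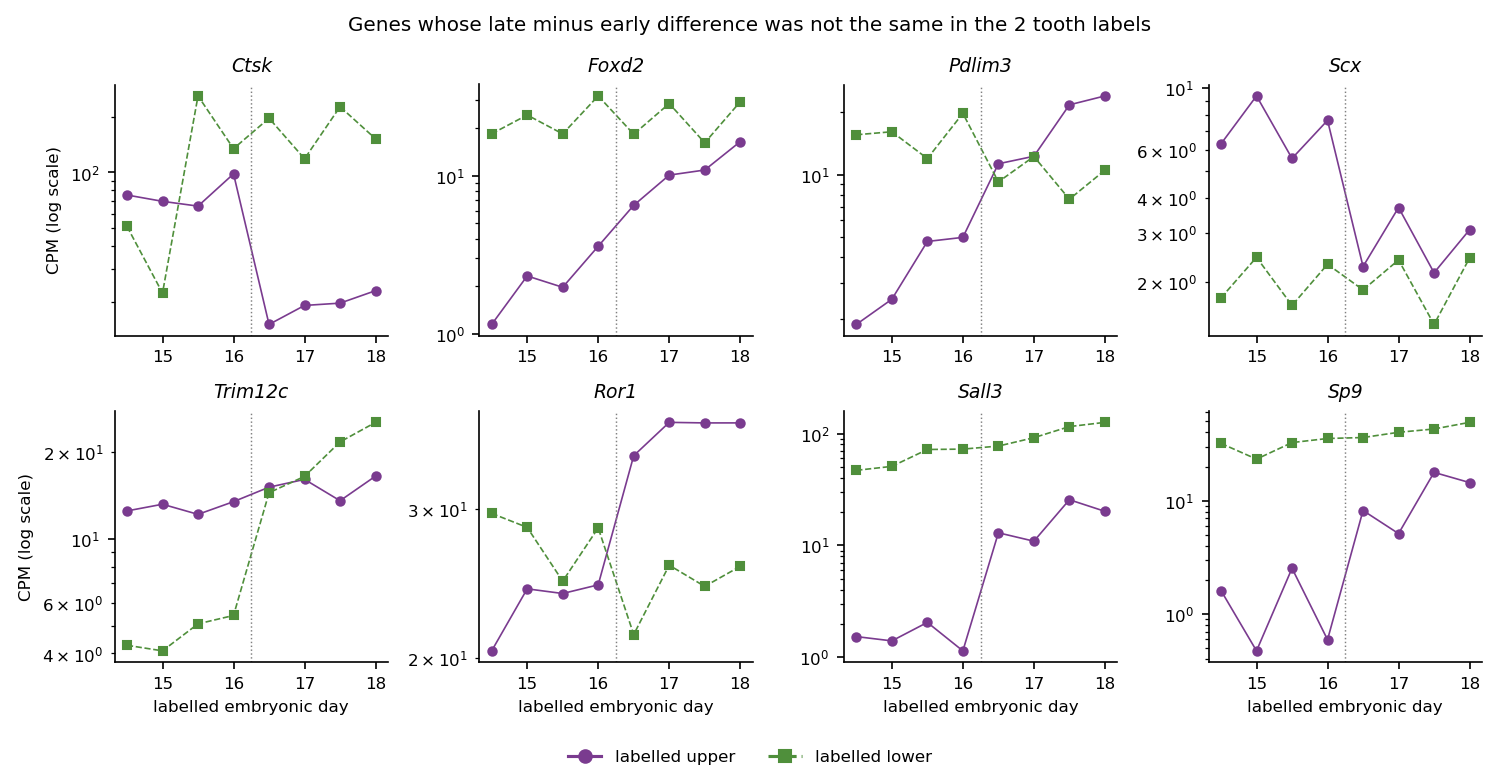
CPM on log axes against labelled embryonic day for 8 genes called for the difference of the steps, with 1 library per point, labelled upper as circles on solid lines and labelled lower as squares on dashed lines. Sall3, Sp9 and Foxd2 climb in labelled upper towards the level of labelled lower, Scx falls at the dotted line in labelled upper alone, and Trim12c has its larger change there in labelled lower.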

How the data were processed

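Gene counts of 16 libraries were used as the authors deposited them. Per the submitters' processing notes the tools were Bowtie2 2.0.2, TopHat2 2.0.6 and HTSeq 0.5.3p9 with build mm10, while annotation and strand setting are not stated. The 5 summary lines of each file stayed out of library sizes and tests, with 12.6% to 14.6% of counted reads on no feature, and library totals of 33146758 to 38584429 gene counts set the precision.

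Late was tested against early in the 8 labelled upper libraries by edgeR 4.0.16 under R 4.3.3 (TMM factors, glmQLFit and glmQLFTest, two-sided, Benjamini-Hochberg over all genes tested, threshold 0.05) and the alternating set as covariate. The jump added the linear stage, and the difference of the steps used all 16 libraries (floor 0.269 CPM). The SE is the log2 difference divided by the root of F. CPM values are not TMM-scaled. Alternatives were DESeq2 1.42.0, other filters and size factors, leaving out libraries, no covariate, single sets, a slope and the block. In data simulated from these libraries the step test recovered 91% of genes changed by log2 1 and 99% by log2 2, the jump 68% and 91%, and the difference 86% and 99%, with 14, 9 and 6 unchanged genes called. The simulation drew each library independently and changed only genes with a mean count of at least 50. It leaves out the likeness of neighbouring stages, so it cannot show how that likeness affects the calls.

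The members and the gene lists were chosen with earlier results of these data known. Genes were named from those averaging 50 counts or more per library, as the 12 largest log2 differences in each direction without overlap (step), the 5 smallest p in each direction (jump, difference) and the 4 smallest p of each list, clone and Rik names skipped. Further called list members were named after their values were seen, and a few genes that the rule or a list count includes are not reported here. The individual pairs upper with lower libraries by the labels. Deviations of same-numbered libraries correlated at r 0.0115 to 0.161 over 9960 genes, over 0.1 for 2 of 8 individuals. For 2 of 8 the best match was the library of the same number. Coordinates are from GENCODE M21 (GRCm38) and promoters from RefSeq.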

Additional observations from a re-analysis of the deposited data

Results flagged for a closer look

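In groups of 4 libraries, 12 of the 328 sets of values checked (164 genes in the early and the late group) held a library whose gap to its nearest neighbour was, as a share of the group's range, above the critical value of Dixon's test. About 1 in 20 groups pass that value when 4 values are drawn independently from 1 normal distribution. These groups hold different stages in alike pairs, so that rate does not apply to them. The late library of ED18.0 stood high in 5 muscle genes, at 18.8 CPM for Myh3, 14.99 CPM for Actc1, 5.58 CPM for Acta1, 2.05 CPM for Myl1 and 8.90 CPM for Ttn. Among early libraries, ED14.5 was low in Myh3 (0.441 CPM), ED15.5 high in Igfbpl1 (2.38 CPM) and Foxi3 (41.9 CPM) and low in Tnc (184 CPM), and ED15.0 high in Fibcd1 (9.07 CPM) and Tfap2b (409 CPM). In the late group ED16.5 was low in Smoc1 (59.7 CPM).

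The step differed between the tooth labels for 50 of the genes named, in edgeR's test of that difference over the 16 libraries (adjusted p of at most 0.05, Benjamini-Hochberg). This count is partly fixed by how genes were named. Genes named for the smallest p of this same test are included, and the labelled upper step that named others is part of the difference. The count therefore does not show how often the steps differ, and over all genes tested 3.67% were called. Values in parentheses are the labelled upper step minus the labelled lower step on the log2 scale. Among transcription factor genes the difference was positive for Sall3 (2.73), Sp9 (2.73), Foxd2 (2.31), Gbx2 (3.68), Foxi3 (0.59), Lef1 (0.78), Twist1 (0.58) and Tead1 (0.50) and negative for En1 (-2.54), Scx (-1.37) and Tsc22d1 (-0.49). Among signalling genes it was positive for Edar (0.98), Tnfrsf19 (0.33), Notch2 (0.38), Fgfr2 (0.40), Fgf10 (0.52), Wnt5a (0.28), Ror1 (0.87), Axin2 (0.43), Apcdd1 (0.69), Wif1 (0.81), Sfrp4 (0.74), Rspo2 (1.05), Bmp3 (0.47) and Inhbb (1.48) and negative for Rspo4 (-2.43), Bmp2 (-1.68), Fgf15 (-1.68) and Tgfb1 (-0.67). Among matrix, adhesion and cytoskeleton genes it was positive for Pdlim3 (2.96), Smoc1 (2.26), Smoc2 (1.33), Thbs4 (1.61), Lamc3 (0.92), Col4a5 (0.61) and Fat2 (1.08) and negative for Tnc (-1.12). For the other named genes it was positive for Snap25 (1.28), Lyz2 (0.96), Aldh1a3 (0.91), Dock10 (1.06), Fam189a1 (0.97) and Psd3 (0.72) and negative for Ctsk (-2.64), Car2 (-1.53), Nptx2 (-1.81), Fibcd1 (-1.56), Trim12c (-1.81), Trim68 (-1.34) and Hmgn3 (-0.57).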

How the results depend on the processing

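All named genes kept the direction of their difference under every alternative run. Of the 1747 genes called for the step, the number became 2441 with DESeq2, 1724 with RLE size factors, 1711 without a filter beyond 1 count, 1694 with at least 4 libraries at 1 CPM, 2142 with the spread shared over 16 libraries and 2176 for a linear slope in place of the step. It became 577 without the covariate, 558 without ED16.0 and ED16.5, 2 in the set of ED14.5 alone and 0 in the set of ED15.0 alone (edgeR, with 2331 and 2232 genes at an unadjusted p of at most 0.05; 4 libraries each), and 0 with alike neighbours summed in edgeR (2571 unadjusted) or 771 in DESeq2, the summed settings chosen after seeing the data. With 1 library left out it was 635 to 1465. The share of calls that were higher was 58.3% and reached 64.5% without the covariate and 68.2% with a library left out. The 39 jumps became 200 with DESeq2 and 0 to 50 with 1 library left out. The 598 differences of the steps became 1082 with DESeq2, 295 to 587 with 1 of 16 libraries left out, 0 with neighbours summed in edgeR (1520 unadjusted) and 477 with the individual as a replicate block, which is the pairing the labels give and changed no call of the 10 genes named for that test. Of 164 genes examined for the step, 131 were called in the main fit. All 131 calls were lost with neighbours summed in edgeR and 23 with the same sums in DESeq2. The call was lost for 63 without the covariate and for 48 without ED16.0 and ED16.5. The cause of these changes was not tested. Leaving out stages or summing neighbours leaves fewer libraries to fit, while the fit without the covariate kept them all. Depth limits genes with few counts, such as Ckm with 4 early counts.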

Other observations

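Genes at a mean of at least 50 CPM that belong to none of the 28 lists were also read for large steps without overlap, and the following were chosen after their values were seen. Aldh1a3 and Cyp26b1, genes of retinoic acid enzymes, moved in opposite directions, and other genes of such enzymes are not shown here. Aldh1a3, which makes retinoic acid, measured 30.8, 23.8, 33.0 and 32.9 CPM early and 67.7, 64.4, 75.3 and 86.1 CPM late (1.28 ± 0.12, adjusted p = 0.00209 in edgeR's test), and Cyp26b1, which breaks it down, measured 129, 119, 119 and 91.1 CPM early and 62.0, 57.1, 53.8 and 51.1 CPM late (-1.03 ± 0.09, adjusted p = 0.00171). For both genes the groups did not overlap. The calcium-binding matrix protein genes Smoc1 and Smoc2 rose by 1.37 ± 0.24 and 0.91 ± 0.13, the laminin chain gene Lamc3 by 0.95 ± 0.10 and the thrombospondin gene Thbs4 by 1.32 ± 0.32. Smoc2 measured 263, 202, 321 and 309 CPM early and 489, 473, 578 and 523 CPM late. Fat2, an atypical cadherin, rose by 0.92 ± 0.15, the Bmp antagonist Nbl1 by 0.98 ± 0.13, Arrb1, beta-arrestin, by 0.84 ± 0.13, Dock10 by 0.85 ± 0.08 and the kinase Wnk4 by 0.88 ± 0.20.

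Genes of AP-2 factors, which act in neural crest and surface ectoderm, moved both ways. Tfap2a, which averaged under 50 CPM, rose by 0.30 ± 0.07. Tfap2b measured 353, 409, 352 and 357 CPM early and 240.2, 282, 199 and 250.3 CPM late (-0.61 ± 0.07, adjusted p = 0.00431), and Tfap2c fell by 0.71 ± 0.12. Spock1, a proteoglycan gene, fell by 0.64 ± 0.14, the hyaluronan synthase gene Has2 by 0.54 ± 0.08, the sulfotransferase gene Chst2 by 0.48 ± 0.11 and the lectin gene Chodl by 0.51 ± 0.12. The amino acid transporter gene Slc38a4, Psat1 of serine synthesis and Prkcdbp fell by 0.56 ± 0.06, 0.47 ± 0.07 and 0.48 ± 0.08. Of the 20 genes named here beside Tfap2a, 15 kept their call whichever library was left out, and Thbs4, Wnk4, Spock1, Chodl and Chst2 did not.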
